A study of Homo sapiens with 6 samples.

Results

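RNF31 lies on human chromosome 14 in a dense run of short genes that are read from both strands. The genes described here are PCK2, DCAF11 and EMC9 on one side of RNF31 and REC8, IPO4, TM9SF1, CHMP4A, NEDD8, GMPR2 and TINF2 on the other, which stand between rank -6 and rank 11 from RNF31 in the RefSeq order of protein-coding genes (GRCh38.p14, used for names, order and promoter sequences). They were chosen by symbol as genes around this locus, leaving out PSME1, PSME2 and IRF9, and all 10 were found among the 17645 genes listed. FITM1, TSSK4, MDP1 and NEDD8-MDP1 also lie within this span and are not among the 10. All 10 also passed the filter on low values, a minimum of 1 FPKM in 3 or more of the 6 libraries, which left 11346 genes to test. The position of a gene says nothing of its function, and the group is held together by its address only.

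The study silenced RNF31 with small interfering RNA in a human line labelled MDAMB231, a mesenchymal-like line of triple negative breast cancer, and measured RNA by sequencing. The groups were siRNF31, cells transfected with siRNA against RNF31, and siControl, cells transfected with a control siRNA, each with 3 libraries taken at 48 h. Both groups went through the same transfection in 1 line, and the siRNA sequences were not used here. The labels do not tell whether replicates came from different cultures, and p-values therefore reflect library-to-library spread that could be technical. Values are FPKM, sequenced fragments scaled to transcript length and to all mapped fragments of the library.

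RNF31 itself checks the labels. Its level was 1.92, 2.12 and 1.86 FPKM in the siRNF31 libraries, against 11.34, 10.7 and 10.57 FPKM in the siControl libraries, so the groups stood far apart. This was a ratio of means of 0.181 and a log2(FPKM + 1) fold change of -2.0 (limma, adjusted p = 1.29e-07). Of the receptor genes that are low in triple negative tumours, PGR averaged 0.00667 FPKM in siRNF31 and 0.00333 in siControl, ESR1 averaged 1.09 and 0.85, and ERBB2 averaged 7.38 and 8.12. The mesenchymal marker VIM averaged 3570 FPKM in siRNF31 and 3160 FPKM in siControl, while EPCAM of luminal epithelium averaged 0.02 and 0.01 FPKM. Of the carcinoma keratins, KRT18 averaged 90.6 FPKM in siRNF31 and 167 FPKM in siControl, KRT8 10.2 in both, KRT7 6.16 and 3.61, and KRT19 0.0367 and 0.0133. All 6 markers of fibroblasts were present too, with a summed level of 1810 to 1830 FPKM in siRNF31 and 2050 to 2130 FPKM in siControl. COL1A1 averaged 668 FPKM in siRNF31 and 1050 FPKM in siControl, LUM 95.2 and 117, DCN 21.5 and 25.2, and PDGFRB 9.14 and 23.4. COL3A1 (328 and 204 FPKM) and COL1A2 (704 and 664 FPKM) went the other way. The identity of the cells beyond their label and the part of these markers in the results were not tested, and in bulk RNA fewer cells of a type and less RNA per cell cannot be told apart. Markers of luminal epithelium, endothelium, leukocytes and adipocytes summed to no more than 2.09 FPKM in any library.

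Neighbouring genes can share a promoter region or a transcript that runs on from one into the next, and the locus holds both layouts. NEDD8 and GMPR2 start back to back, REC8 and IPO4 meet tail to tail, and a readthrough transcript, NEDD8-MDP1, joins NEDD8 to its neighbour. A small interfering RNA acts mainly on mature transcripts in the cytoplasm rather than on the gene. Whether the silencing of RNF31 reached its neighbours through the layout of the locus was not tested.

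Of the 10 genes, 3 were higher in siRNF31 than in siControl, 2 were lower and 5 did not pass the test. PCK2, REC8 and GMPR2 rose, and IPO4 and TINF2 fell. A gene passed, or was called, at an adjusted p below 0.05 in limma. So 50% of the genes were called, where 63.1% of all tested genes were, and the share among the 10 is no larger than this background. For each direction the background was 26.6% of tested genes higher and 36.5% lower. PCK2 was the 1 member both called and changed by at least 2-fold, which 7.84% of all tested genes were. Groups were free of overlap for 6 of the 10 genes, and for 67.2% of all tested genes. The median log2 fold change of the 10 was 0.003, and that of all tested genes was -0.06. These counts and this median describe the 10 only, not the whole span. Of the genes of the span left out, PSME1 (-0.42), PSME2 (-0.73) and MDP1 (-0.75) were called lower and IRF9 (0.38) higher, and NEDD8-MDP1 was not called. Under median of ratios scaling and under quantile normalization, 4 of the 10 were higher and 1 was lower. The background shifted as well, to 31.4% higher and 31.5% lower of all tested genes under the first scaling and to 31.1% and 33% under the second.

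**Figure D1:**
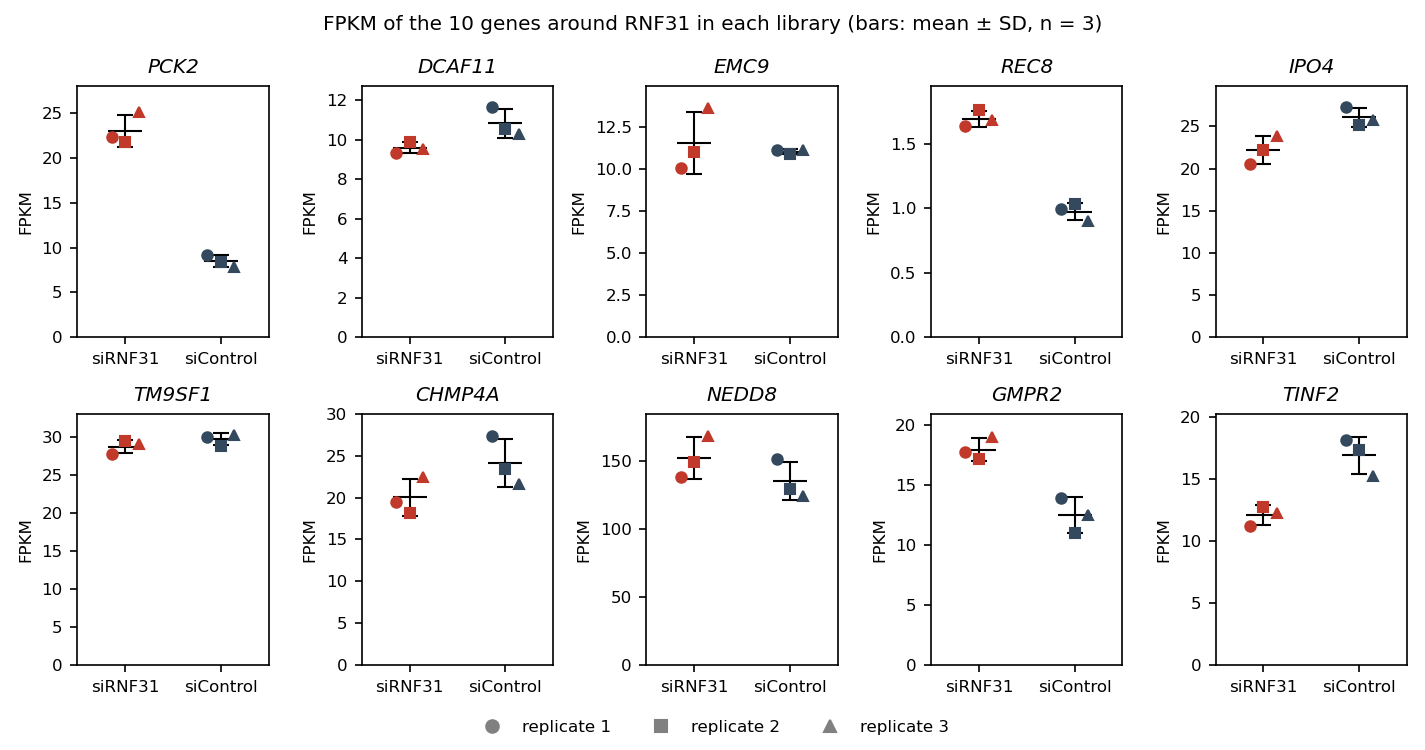
FPKM of each of the 10 genes (vertical axis, from 0) in the 3 siRNF31 libraries and the 3 siControl libraries, with the mean and SD of each group as bars and a symbol shape for each replicate number. PCK2, REC8 and GMPR2 sit higher in all siRNF31 libraries and DCAF11, IPO4 and TINF2 lower, while the groups overlap for EMC9, TM9SF1, CHMP4A and NEDD8.

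The libraries were not all alike, and this touches several of the genes. Pearson correlations of log2 values were 0.993 to 0.998 within groups and 0.941 to 0.949 between them. On the second principal component, which held 7.18% of the variance, siRNF31 replicate 3 and siControl replicate 1 stood apart from the other 4 libraries. With tested genes cut into 4 equal classes by transcript length, the class of the shortest transcripts had a median deviation from the group mean of 0.050 in siRNF31 replicate 3 and 0.061 in siControl replicate 1 on the log2 scale, and in the class of the longest it was -0.067 and -0.073. Within siRNF31, replicate 3 gave the highest value for 6 of the 10 genes, and within siControl, replicate 1 alone gave the highest for 7 and tied with replicate 3 for EMC9. The part of transcript length in these results was not tested. Without these 2 libraries 7 of the 10 genes were called, 4 higher and 3 lower, the added ones being NEDD8 and CHMP4A. In the same fit 69.8% of all tested genes were called, so 7 of 10 is close to that background.

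**Figure D2:**
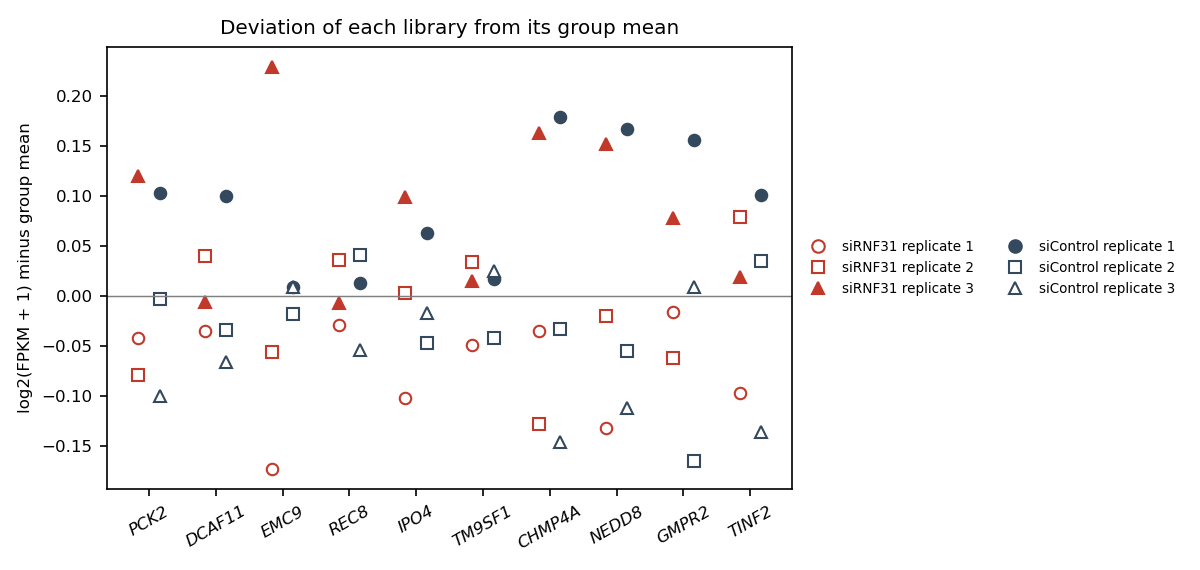
Difference of log2(FPKM + 1) in each library from the mean of its own group (vertical axis, log2 units) for the 10 genes, with siRNF31 in red and siControl in dark blue, and filled symbols for siRNF31 replicate 3 and siControl replicate 1. Both filled symbols lie at or above 0.15 for CHMP4A and NEDD8, and siRNF31 replicate 3 reaches 0.229 for EMC9.

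Among the enzymes, PCK2 had the largest change of the 10. PCK2 is the mitochondrial phosphoenolpyruvate carboxykinase, which makes phosphoenolpyruvate from oxaloacetate and is a known target of the stress transcription factor ATF4. It measured 22.35, 21.76 and 25.12 FPKM in siRNF31 libraries, against 9.16, 8.44 and 7.83 FPKM in siControl libraries. Every siRNF31 library was more than double every siControl library. The means were 23.1 ± 1.79 FPKM in siRNF31 and 8.48 ± 0.666 FPKM in siControl (SD, n = 3 each), a ratio of 2.72. On the log2(FPKM + 1) scale PCK2 rose by 1.35 (SE 0.078, limma adjusted p = 1.79e-06). Leaving out siRNF31 replicate 3 and siControl replicate 1 gave 1.34. The call held in all 14 alternatives, with log2 fold changes of 1.28 to 1.43.

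By the pattern over the 6 libraries, the tested genes most like PCK2 were ZDHHC16, PHGDH and MT2A. Likeness was the root mean square distance between log2 values centred on their mean, and it was 0.034, 0.034 and 0.035. ZDHHC16 is a palmitoyltransferase gene, PHGDH encodes the first enzyme of serine synthesis and MT2A a metallothionein, one of a family of near copies among which reads can be split. PHGDH averaged 190 FPKM in siRNF31 and 73.8 FPKM in siControl. With 2 groups of 3 libraries, many genes that rise by a like amount share such a pattern.

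The RefSeq promoter window of PCK2, 250 bases before to 50 after its start, is shown because PCK2 had the largest change. It lies at chr14:24094061-24094360 on the plus strand of GRCh38.p14. Capitals mark the GC box GGGCGG and the CCAAT box CCAAT on either strand.
PCK2: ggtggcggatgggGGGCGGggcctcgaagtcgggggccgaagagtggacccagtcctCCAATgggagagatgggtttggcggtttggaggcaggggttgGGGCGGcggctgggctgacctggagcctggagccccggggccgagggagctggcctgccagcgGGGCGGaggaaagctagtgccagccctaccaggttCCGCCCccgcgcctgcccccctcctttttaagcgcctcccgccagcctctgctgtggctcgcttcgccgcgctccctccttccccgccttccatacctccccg

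The window held 4 GC boxes and 1 CCAAT box. The amino acid response element TGATGNAA, the kind of sequence through which ATF4 acts, was not among its letters, and 3.62% of 35116 RefSeq windows of the same length hold it. Sites outside the window were not searched. GC content was 71.7%, against a median of 58.7% over all windows.

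PCK2 can be set beside lists of its pathway. Of 14 tested genes of phosphoenolpyruvate, pyruvate and serine metabolism, 8 were higher and 3 lower, with a median log2 fold change of 0.22. PHGDH had a log2 fold change of 1.35 and MTHFD2, a mitochondrial folate enzyme, of 1.02, while ENO1, the glycolytic enolase, fell by 1.23 and GOT2, the mitochondrial aspartate aminotransferase, by 1.13 (limma, adjusted p of at most 3.8e-06 for each). Of 20 tested ATF4 responders, 17 were higher and none lower, with a median of 0.77. Over all tested genes 26.6% were higher and 36.5% lower, with a median of -0.06. These lists were chosen with earlier results of these data known, and the part of ATF4 in the rise of PCK2 was not tested. ATF3, a stress transcription factor, averaged 119 ± 0.799 FPKM in siRNF31 and 6.21 ± 0.637 FPKM in siControl, and SESN2, an inhibitor of growth signalling, averaged 43.3 ± 1.65 and 6.61 ± 0.442 FPKM (SD, n = 3 each). Under quantile normalization 1 responder was lower.

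GMPR2, the second enzyme gene, also rose. GMPR2 is a guanosine monophosphate reductase, which turns guanine nucleotides back toward inosine monophosphate. Its level was 17.75, 17.16 and 19.02 FPKM in siRNF31 libraries, against 13.97, 10.98 and 12.52 FPKM in siControl libraries. The lowest siRNF31 library stood above the highest siControl library. The means were 18.0 ± 0.950 FPKM in siRNF31 and 12.5 ± 1.5 FPKM in siControl (SD, n = 3 each), a ratio of 1.44. GMPR2 rose by 0.50 on the log2 scale (SE 0.087, limma adjusted p = 0.0011), and the value was 0.54 without siRNF31 replicate 3 and siControl replicate 1. Of 11 tested genes of guanine nucleotide interconversion, 2 were higher and 6 lower, with a median log2 fold change of -0.15. PNP, purine nucleoside phosphorylase, averaged 65.1 ± 2.89 FPKM in siRNF31 and 28.2 ± 1.72 FPKM in siControl. The paralog GMPR went the other way, with 4.07 ± 0.285 FPKM in siRNF31 and 7.15 ± 0.206 FPKM in siControl (log2 fold change -0.68, limma adjusted p = 3.93e-05). Under median of ratios scaling 2 genes of this list were higher and 3 lower.

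GMPR2 and NEDD8 start on opposite strands, and the NEDD8 window shares 246 of 300 bases with 1 of the 2 GMPR2 windows. The other GMPR2 window, at chr14:24232679-24232978, shares no base with that of NEDD8. The overlapping GMPR2 window is shown because the 2 genes did not give the same call on the values as deposited. Under median of ratios scaling and quantile normalization both genes were called higher. The window shown is the first by position. It lies at chr14:24232372-24232671 on the plus strand of GRCh38.p14, with GC and CCAAT boxes in capitals.
GMPR2: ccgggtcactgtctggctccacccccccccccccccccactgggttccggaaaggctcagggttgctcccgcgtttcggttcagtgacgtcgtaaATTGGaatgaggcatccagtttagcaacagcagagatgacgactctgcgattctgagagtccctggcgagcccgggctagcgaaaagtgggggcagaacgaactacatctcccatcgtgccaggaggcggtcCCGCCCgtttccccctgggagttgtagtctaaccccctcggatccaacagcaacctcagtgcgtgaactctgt

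NEDD8 is a small protein related to ubiquitin that is attached to cullins and switches on the cullin-RING ubiquitin ligases. Of the 10 genes it was the most abundant. It measured 138.64, 149.84 and 168.98 FPKM in siRNF31 libraries, against 151.7, 129.95 and 124.83 FPKM in siControl libraries. The groups overlapped, since siControl replicate 1 was above 2 of the siRNF31 libraries. The means were 152 ± 15.3 FPKM in siRNF31 and 135 ± 14.3 FPKM in siControl (SD, n = 3 each). NEDD8 had a log2 fold change of 0.17 with a 95% confidence interval of -0.05 to 0.39 (limma, adjusted p = 0.15). Without siControl replicate 1 it was 0.25 (adjusted p = 0.029), and without siRNF31 replicate 3 as well it was 0.18 (adjusted p = 0.0088). It also passed under median of ratios scaling (0.24, adjusted p = 0.049) and quantile normalization (0.19, adjusted p = 0.025). The readthrough NEDD8-MDP1 was listed at 1.41, 1.04 and 2.91 FPKM in siRNF31 and at 3.28, 0 and 3.02 FPKM in siControl. It shares exons with NEDD8, and how such reads were split is not known here. Adding the readthrough to NEDD8 gave 140.05, 150.88 and 171.89 FPKM in siRNF31 and 154.98, 129.95 and 127.85 FPKM in siControl, and the groups still overlapped.

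Of 21 tested genes of NEDD8 conjugation and the cullin-RING scaffold, 1 was higher and 8 were lower, with a median log2 fold change of -0.07 and 42.9% called. DCUN1D1, which helps to load NEDD8 onto cullins, averaged 8.34 ± 0.365 FPKM in siRNF31 and 15.3 ± 1.27 FPKM in siControl. RBX1, the RING subunit of these ligases, averaged 49.8 ± 3.64 FPKM in siRNF31 and 69.1 ± 6.89 FPKM in siControl (limma, adjusted p = 0.0014). Of the 10 subunits of the COP9 signalosome, which takes NEDD8 off cullins, 1 was higher and 4 were lower, with a median of -0.09. Under median of ratios scaling and quantile normalization 2 were higher. COPS7B had the largest fall, by 0.78 on the log2 scale.

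DCAF11 encodes a substrate receptor of the cullin 4 ligase, a complex that NEDD8 activates. Its level was 9.34, 9.89 and 9.55 FPKM in siRNF31 libraries, against 11.67, 10.54 and 10.29 FPKM in siControl libraries. All 3 siRNF31 libraries lay below the lowest siControl library, but the gap was small. The means were 9.59 ± 0.278 FPKM in siRNF31 and 10.8 ± 0.735 FPKM in siControl (SD, n = 3 each). DCAF11 had a log2 fold change of -0.16 with a 95% confidence interval of -0.31 to -0.008, and it did not pass (limma, adjusted p = 0.064). It passed when all libraries were scaled to a common sum (adjusted p = 0.033). Of 17 tested receptors of the same kind, 3 were higher and 8 lower, with a median of 0.02. DCAF10 averaged 13.9 ± 0.154 FPKM in siRNF31 and 8.48 ± 0.765 FPKM in siControl, and DCAF15 averaged 12.0 ± 1.5 and 18.7 ± 1.54 FPKM.

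Genes of chromosome structure went both ways. REC8 encodes the meiotic kleisin, which in germ cells takes the place of RAD21 in the cohesin ring. It was the least abundant of the 10. Its level was 1.64, 1.76 and 1.68 FPKM in siRNF31 libraries, against 0.99, 1.03 and 0.90 FPKM in siControl libraries. The groups did not overlap, and the spread within each was small beside the gap. The ratio of the means was 1.74. REC8 rose by 0.45 on the log2(FPKM + 1) scale (SE 0.065, limma adjusted p = 0.00040), a scale that understates the change of a gene this low. It was 0.46 without siRNF31 replicate 3 and siControl replicate 1. REC8 reached the minimum of 1 FPKM in 4 libraries, the 3 of siRNF31 and 1 of siControl, so it would have passed the filter through siRNF31 alone, whereas the other 9 genes reached it in all 6.

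REC8 overlaps a neighbour. In the GENCODE 29 annotation, 39 exon bases of REC8, or 1.01%, overlap IPO4 on the other strand, and no source used here gives the strand setting of the counting. IPO4 was over 10 times as abundant and moved in the opposite direction. IRF9, the next gene upstream of REC8 on the same strand, averaged 28.2 ± 2.19 FPKM in siRNF31 and 21.4 ± 1.32 FPKM in siControl. The part of these neighbours in the REC8 values was not tested.

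The window of REC8 is shown for the rise of a meiotic gene in these cells. It lies at chr14:24171830-24172129 on the plus strand of GRCh38.p14 and held 3 CCAAT boxes and 1 GC box, in capitals.
REC8: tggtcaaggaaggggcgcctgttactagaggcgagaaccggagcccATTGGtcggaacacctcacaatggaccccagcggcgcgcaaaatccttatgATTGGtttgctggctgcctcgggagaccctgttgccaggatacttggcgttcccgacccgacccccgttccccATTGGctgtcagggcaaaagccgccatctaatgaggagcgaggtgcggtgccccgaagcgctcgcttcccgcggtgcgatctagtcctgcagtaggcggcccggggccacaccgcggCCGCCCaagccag

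Of 16 tested genes of cohesin and its regulators, 1 was higher and 6 were lower, with a median log2 fold change of -0.20. The list holds 18 genes, and the rest did not pass the filter on low values. Whether meiotic subunits rose as a set was not tested. The 1 higher gene was STAG3, itself a meiotic subunit, with 2.77 ± 0.182 FPKM in siRNF31 and 1.72 ± 0.235 FPKM in siControl (log2 fold change 0.48, limma adjusted p = 0.0012). STAG2, its counterpart in dividing body cells, averaged 10.5 ± 1.74 FPKM in siRNF31 and 20.4 ± 3.08 FPKM in siControl. ESPL1, the protease separase that opens cohesin, fell by 0.53 on the log2 scale.

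TINF2 encodes TIN2, which holds the shelterin complex together at telomeres, and it fell. It measured 11.19, 12.77 and 12.21 FPKM in siRNF31 libraries, against 18.15, 17.3 and 15.25 FPKM in siControl libraries. The highest siRNF31 library was below the lowest siControl library. The means were 12.1 ± 0.801 FPKM in siRNF31 and 16.9 ± 1.49 FPKM in siControl (SD, n = 3 each), a ratio of 0.713. TINF2 fell by 0.45 on the log2 scale (SE 0.079, limma adjusted p = 0.0011), and its log2 fold change was -0.41 without siRNF31 replicate 3 and siControl replicate 1. Of 10 other tested genes of shelterin and telomerase, 2 were higher and 5 lower, with a median of -0.14. TERF2IP, the shelterin subunit RAP1, averaged 28.4 ± 1.60 FPKM in siRNF31 and 21.9 ± 0.251 FPKM in siControl. ACD, the subunit TPP1 that binds TIN2, averaged 12.3 ± 0.511 and 10.3 ± 0.767 FPKM. RTEL1, a helicase of telomere ends, fell by 0.63 on the log2 scale.

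The TINF2 window is given because TINF2 fell. It lies at chr14:24242574-24242873 on the minus strand of GRCh38.p14, is written along the direction of TINF2, and held 2 GC boxes and 1 CCAAT box.
TINF2: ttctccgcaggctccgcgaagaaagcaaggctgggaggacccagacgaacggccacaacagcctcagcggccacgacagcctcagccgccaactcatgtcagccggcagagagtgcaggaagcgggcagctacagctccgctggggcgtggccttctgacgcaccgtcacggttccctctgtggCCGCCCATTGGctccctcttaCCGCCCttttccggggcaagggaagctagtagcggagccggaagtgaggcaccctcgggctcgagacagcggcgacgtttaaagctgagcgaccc

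IPO4 encodes importin 4, a nuclear import receptor that carries histones H3 and H4, and it fell slightly. It measured 20.6, 22.22 and 23.83 FPKM in siRNF31 libraries, against 27.26, 25.19 and 25.74 FPKM in siControl libraries. All siRNF31 libraries were below all siControl libraries. The means were 22.2 ± 1.62 FPKM in siRNF31 and 26.1 ± 1.07 FPKM in siControl (SD, n = 3 each), a ratio of 0.852. IPO4 fell by 0.22 on the log2 scale (SE 0.066, limma adjusted p = 0.017), and its log2 fold change was -0.24 without siRNF31 replicate 3 and siControl replicate 1. The call was lost without siRNF31 replicate 1 (-0.17, adjusted p = 0.068) and without siRNF31 replicate 2 (-0.22, adjusted p = 0.051), and also under median of ratios scaling (-0.15, adjusted p = 0.069) and quantile normalization (-0.14, adjusted p = 0.072). Of 17 other tested transport receptors of the importin beta family, 6 were higher and 6 lower, with a median of -0.03 that became 0.04 under median of ratios scaling and 0.05 under quantile normalization. IPO7 and IPO5, both import receptors, rose by 0.42 and 0.41 on the log2 scale. TNPO1, the import receptor transportin, fell by 0.71 and XPO1, the main nuclear exporter, by 0.45.

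The IPO4 window is shown because it was the only one of the 9 genes with a window to hold neither box in any window. It lies at chr14:24188767-24189066 on the minus strand of GRCh38.p14. The capital-free run is written along the direction of IPO4.
IPO4: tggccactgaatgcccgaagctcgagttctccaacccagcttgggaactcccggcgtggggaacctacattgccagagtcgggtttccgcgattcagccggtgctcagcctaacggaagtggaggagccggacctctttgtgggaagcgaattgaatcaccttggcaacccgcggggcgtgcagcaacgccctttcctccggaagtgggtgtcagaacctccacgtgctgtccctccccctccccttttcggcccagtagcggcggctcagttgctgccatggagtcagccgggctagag

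None of the 3 genes of membrane compartments passed the test. CHMP4A encodes a subunit of ESCRT-III, the filament that cuts membrane necks in endosomes and at the end of cell division. It measured 19.47, 18.2 and 22.48 FPKM in siRNF31 libraries, against 27.33, 23.45 and 21.62 FPKM in siControl libraries. The groups overlapped through siRNF31 replicate 3 and siControl replicate 3. The means were 20.05 ± 2.20 FPKM in siRNF31 and 24.1 ± 2.92 FPKM in siControl (SD, n = 3 each). CHMP4A had a log2 fold change of -0.25 with a 95% confidence interval of -0.48 to -0.02 and missed the threshold (limma, adjusted p = 0.054). It passed without siRNF31 replicate 3 (-0.34, adjusted p = 0.015), without siControl replicate 3 (-0.33, adjusted p = 0.025), without siRNF31 replicate 3 and siControl replicate 1 together (-0.25, adjusted p = 0.0045) and with libraries scaled to a common sum (-0.28, adjusted p = 0.014). Of 14 other tested genes of ESCRT-III and its ATPase, 2 were higher and 5 lower, with a median of -0.08. The paralog CHMP4B averaged 66.6 ± 3.27 FPKM in siRNF31 and 59.1 ± 3.70 FPKM in siControl (log2 fold change 0.17, limma adjusted p = 0.045). CHMP6 and CHMP7 fell by 0.44 and 0.42 on the log2 scale.

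EMC9 belongs to the ER membrane protein complex, which inserts transmembrane segments of new proteins. It measured 10.09, 11.02 and 13.65 FPKM in siRNF31 libraries, against 11.13, 10.9 and 11.13 FPKM in siControl libraries. The siRNF31 libraries straddled the siControl libraries, with replicate 3 the high one. EMC9 had a log2 fold change of 0.05 with a 95% confidence interval of -0.17 to 0.28 (limma, adjusted p = 0.66), and without siRNF31 replicate 3 and siControl replicate 1 it was -0.06. A noncoding gene on the other strand shares 19.6% of the exon bases of EMC9. Of 9 other tested subunits of the complex, 1 was higher and 5 were lower, with a median of -0.17. These counts became 2 higher and 3 lower with median of ratios scaling. As deposited, the 1 higher subunit gene was EMC6, with 47.9 ± 4.12 FPKM in siRNF31 and 16.6 ± 1.92 FPKM in siControl (log2 fold change 1.47, limma adjusted p = 2.61e-06). EMC1, a large subunit, fell by 0.47 on the log2 scale.

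TM9SF1 encodes a membrane protein with 9 transmembrane segments that lies in endosomes and the Golgi. It measured 27.76, 29.47 and 29.07 FPKM in siRNF31 libraries, against 30.09, 28.84 and 30.26 FPKM in siControl libraries. The groups overlapped and the spread within each was small. TM9SF1 had a log2 fold change of -0.05 with a 95% confidence interval of -0.17 to 0.07 (limma, adjusted p = 0.46). Of the 3 paralogs, TM9SF4 was lower, with 19.0 ± 0.600 FPKM in siRNF31 and 29.8 ± 0.452 FPKM in siControl, and the others did not pass, although 1 of them was higher under median of ratios scaling and under quantile normalization. In GENCODE 29, 59.3% of the exon bases of TM9SF1 and 26.7% of those of CHMP4A are also part of a transcript that runs through both genes, so their split of reads is uncertain. A further transcript on the same strand shares 68.8% of the exon bases of CHMP4A. Likewise 69.3% of the exon bases of IPO4 and 19.9% of those of TM9SF1 belong to a second such transcript.

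**Figure D3:**
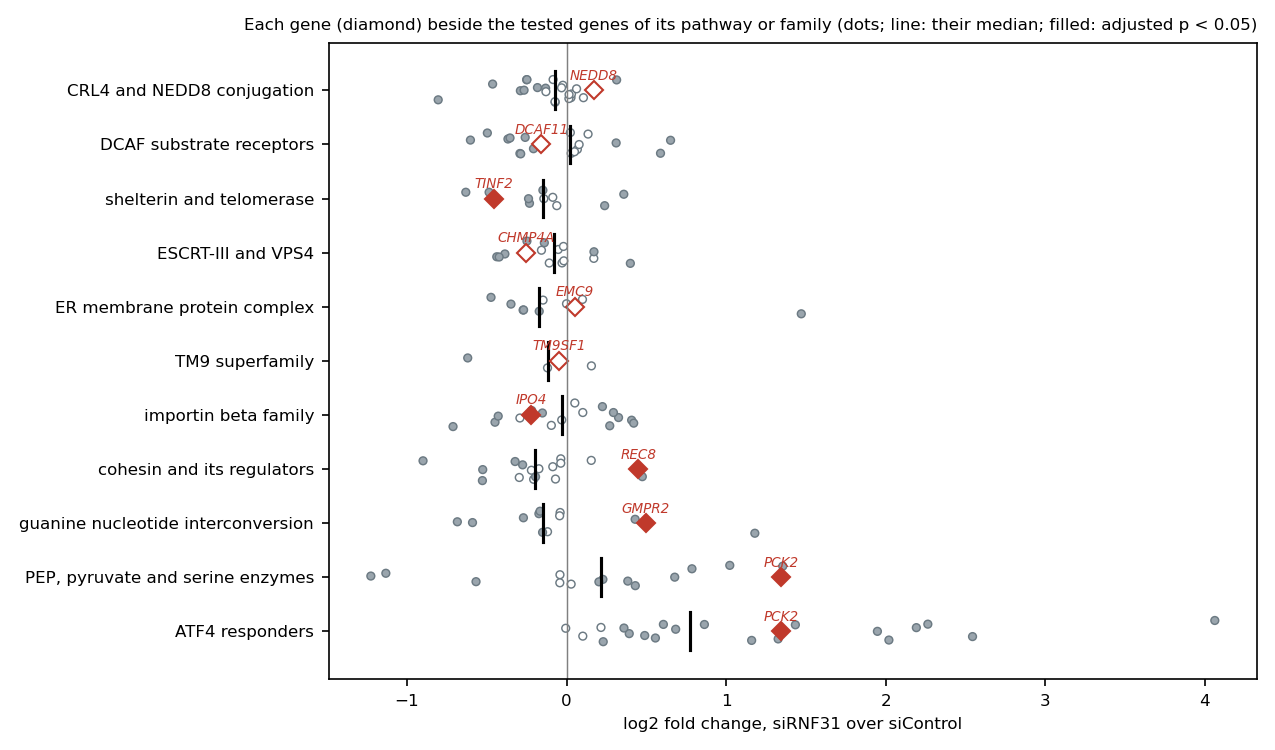
Log2 fold change of siRNF31 over siControl (horizontal axis) for the 10 genes (red diamonds) beside the other tested genes of their pathway or family (grey dots, with a black line at each list's median), filled where the adjusted p was below 0.05. PCK2 lies within the spread of the ATF4 responders, which ran from -0.005 to 4.06 with a median of 0.77. REC8 at 0.45 and GMPR2 at 0.50 lie on the opposite side of 0 from their lists' medians of -0.20 and -0.15.

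The order of the levels changed for PCK2 and between GMPR2 and TINF2. In siRNF31 the order from high to low was NEDD8, TM9SF1, PCK2, IPO4, CHMP4A, GMPR2, TINF2, EMC9, DCAF11 and REC8. There PCK2 and IPO4, IPO4 and CHMP4A, CHMP4A and GMPR2, and TINF2 and EMC9 overlapped. In siControl the order was NEDD8, TM9SF1, IPO4, CHMP4A, TINF2, GMPR2, EMC9, DCAF11, PCK2 and REC8, with overlaps between IPO4 and CHMP4A, between GMPR2 and EMC9, and between EMC9 and DCAF11. PCK2 thus ranked 3 in siRNF31 and 9 in siControl. GMPR2 stood above TINF2 in siRNF31 and below it in siControl, with no overlap between the 2 genes in either group. By mean FPKM over the 6 libraries, REC8 was above 4.4% of tested genes and NEDD8 above 95.9%. The sum over the 10 genes was 278.8, 294.1 and 325.6 FPKM in siRNF31 libraries, against 301.4, 266.6 and 260.4 FPKM in siControl libraries, and NEDD8 made up much of it.

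Along the chromosome the changes followed no single direction. The 20 protein-coding genes on either side of RNF31 include 17 others that were tested, of which 2 were higher and 8 lower, with a median log2 fold change of -0.16. Of 367 other tested genes on chromosome 14, 79 were higher and 151 lower, with a median of -0.09. The nearest neighbours of RNF31 were PSME2, which starts back to back with it and averaged 125 ± 9.40 FPKM in siRNF31 and 208 ± 16.6 FPKM in siControl, and IRF9, which was higher in siRNF31. PSME1 was lower. At rank -12, DHRS2, a short-chain dehydrogenase gene, had a log2 fold change of 1.63 (limma, adjusted p = 1.72e-05). MDP1, a phosphatase gene at the end of the NEDD8 readthrough and named here after its values were seen, averaged 5.57 ± 0.881 FPKM in siRNF31 and 10.2 ± 2.17 FPKM in siControl.

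Calls were also counted by strand. Of the 4 genes on the plus strand, which is also that of RNF31, 3 were higher and DCAF11 did not pass. Of the 6 on the minus strand, none was higher and 2 were lower. Over all tested genes 26.6% were higher and 36.5% lower, so 2 lower of 6 is near the background. The split by strand depends on the scaling. Under median of ratios scaling and under quantile normalization 1 gene on the minus strand, NEDD8, was higher and 1, TINF2, was lower, and with libraries scaled to a common sum DCAF11 on the plus strand was lower. Among the other tested genes of the window, 2 of 10 on the plus strand were higher and 3 lower, and 5 of 7 on the minus strand were lower and none higher. With so few genes this is a description only, and it was noticed after the values were seen.

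**Figure D4:**
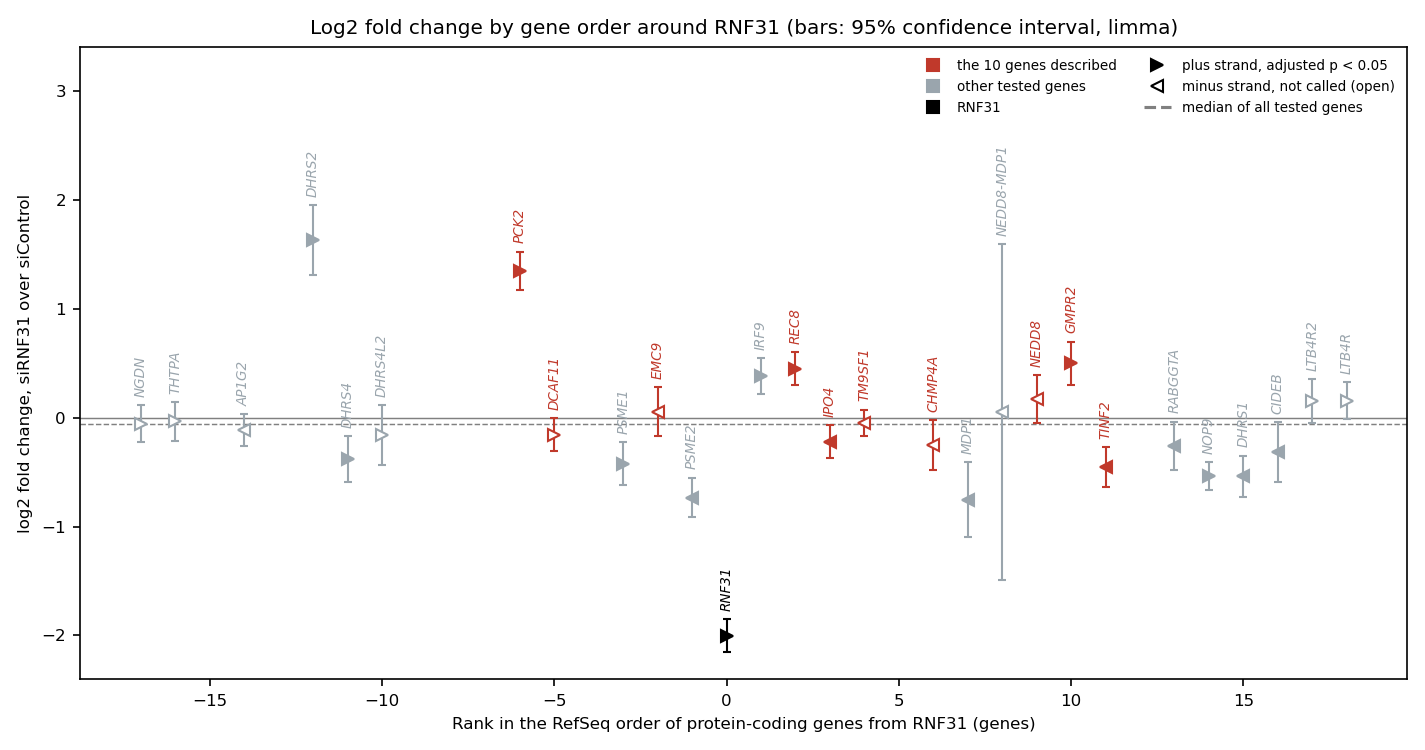
Log2 fold change of siRNF31 over siControl with its 95% confidence interval from limma (vertical axis) for tested genes by their rank from RNF31 in the RefSeq order (horizontal axis, in genes), with triangles pointing right for the plus strand and left for the minus strand and filled where the adjusted p was below 0.05; the dashed line is the median of all tested genes. The 10 genes described are red and range from 1.35 for PCK2 to -0.45 for TINF2. On the side of negative ranks only PCK2 of them was called, and it was higher. On the other side REC8 and GMPR2 were called higher and IPO4 and TINF2 lower.

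RefSeq gave 13 windows for 9 of the 10 genes, all but TM9SF1. Their GC content ran from 51.3% to 71.7% with a median of 61.3%, against a median of 58.7% and quartiles of 47% and 68% over all 35116 windows. The ratio of observed to expected CpG had a median of 0.726, against a median of 0.579 and quartiles of 0.229 and 0.856, so both medians lay inside the quartiles of all windows. A GC box was in 12 of the 13 windows and a CCAAT box in 10, and these occur in 45% and 34.6% of all windows. The windows of the background belong to 27305 genes, whether or not they were tested here. The 9 genes all passed the filter on low values, so these shares set unlike groups of genes side by side. The loose kappa B sequence GGGNNNNNCC was in 11 of the 13 and in 58.7% of all windows. Several of the 13 windows share bases, namely 2 of DCAF11, both of TINF2, and that of NEDD8 with 1 of GMPR2, so they are not independent. In any window, the E-box CACGTG was found for EMC9, IPO4 and CHMP4A (7.26% of all windows). The AP-1 pattern TGANTCA, loose in its middle base, matched for DCAF11 as TGATTCA and for IPO4 as TGAATCA (7.71% of all windows). The interferon response element GAAANNGAAA, the GAS element TTCNNNGAA, the CRE TGACGTCA, the E2F sequences TTTCCCGC and TTTGGCGC and the TATA box TATAAA were not in these windows, and 3.57%, 7.66%, 1.85%, 2.27% and 11.5% of all windows hold them. Both strands were searched, and GC box and kappa B matches can share bases. A GC box was found for 8 of the 9 genes, and a CCAAT box for the same 8. These were PCK2, REC8 and GMPR2, which rose, TINF2, which fell, and DCAF11, EMC9, CHMP4A and NEDD8, which did not pass. IPO4, which fell, carried neither. The interferon-stimulated genes, a class to which neighbours in the locus belong, had 2 members higher and 23 lower of 28 tested, with a median log2 fold change of -1.11. Over all tested genes 26.6% were higher and 36.5% lower. Among neighbours in the locus, PSME1 and PSME2 were lower and IRF9 was higher. The part of interferon in the changes at this locus was not tested.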

How the data were processed

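RNA of 6 libraries, 3 siRNF31 and 3 siControl, was extracted with Trizol and prepared by BGISEQ-500 protocols, per the labels' protocols. The deposited values are FPKM, per the file headers, computed by the authors and printed to 2 decimals. Aligner, counting program, genome build and annotation: not given in the sources used here. FPKM is relative, so a few abundant genes can lower all others, and a change of transcript model changes the level. Depth is unknown, and no counting interval is given. The FPKM columns summed to 421755 to 463457, which are not depths.

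Values were used as log2(FPKM + 1), and genes at a minimum of 1 FPKM in 3 or more of the 6 libraries were tested with limma 3.58.1 in R 4.3.3 (intensity trend, robust moderation, two-sided, Benjamini-Hochberg over all 11346 genes). The threshold for a call was an adjusted p of 0.05. The step was also run on simulated data in which far fewer genes changed than were called here. That run therefore does not cover the setting of these data. The 10 genes and 13 pathway lists were chosen with earlier results of these data known, and a list is described by counts and its median, with no test. Named genes are the 10, RNF31, its landmarks PSME1, PSME2 and IRF9, up to 2 called genes per direction in each list, and neighbours called with a log2 fold change of at least 1 in size. The markers of other cell types were listed likewise. Of 17645 Gene IDs, 17577 were in the RefSeq table (GRCh38.p14). Transcript lengths (median over coding transcripts, matched for 99.4% of tested genes), strands and exon overlaps came from GENCODE 29 (GRCh38). Tables and figures were made in Python 3.11.15 (pandas 2.3.3, numpy 2.4.6, matplotlib 3.10.9). Alternatives were a pseudocount of 0.1, no filter, 3 other scalings, no intensity trend, a replicate block and leaving out libraries.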

Additional observations from a re-analysis of the deposited data

How the results depend on the processing

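PCK2, REC8 and GMPR2 stayed higher and TINF2 lower, and passed, in all 14 alternatives. REC8 ranged from 0.42 to 0.74 on the log2 scale, GMPR2 from 0.41 to 0.57 and TINF2 from -0.52 to -0.37. EMC9 and TM9SF1 passed in none, and their small values changed sign. EMC9, 0.05 as reported, ranged from -0.062 (without siRNF31 replicate 3) to 0.139 (without siRNF31 replicate 1) with 1 library left out, and was -0.057 without both siRNF31 replicate 3 and siControl replicate 1. TM9SF1, -0.05 as reported, was 0.024 under median of ratios scaling and 0.037 under quantile normalization. Of 140 values for single genes, 122 kept direction and call. The number of the 10 genes lower, 2 as reported, was 1 under median of ratios scaling and under quantile normalization, and 4 with libraries scaled to a common sum. Leaving out 1 library in turn gave 1 to 3 lower and 3 to 4 higher. The cause of these shifts was not tested. These scalings moved the all-gene median, -0.06 on the log2 scale, to between -0.08 and 0.004.

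With the replicate number as a block, 3 of the 10 genes were higher and 1 lower, because IPO4 was lost (adjusted p = 0.067), and 2480 genes were higher and 3497 lower, against 3022 and 4141 without it. Same-numbered libraries did not deviate together (correlations of -0.57, 0.12 and -0.63), whereas siRNF31 replicate 3 and siControl replicate 1 did (0.675). Whether the numbers pair the samples cannot be told from this, because deviations from a mean of 3 libraries depend on each other. With 3 libraries a group, single genes with small changes are limited by the spread between libraries, and the depth behind the lowest values is unknown.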
